A study of Mus musculus with 4 samples.

Results

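Replication-dependent histone genes are the clustered genes for the canonical histones, and their promoters were followed here in the peak lists of assay for transposase-accessible chromatin with sequencing (ATAC-seq), in which the Tn5 transposase cuts and tags open chromatin. Members were the protein-coding genes of GENCODE release vM21 whose symbols begin with Hist1h, Hist2h, Hist3h or Hist4 on mouse chromosomes 3, 6, 11 and 13. This gave 67 genes of the 21938 protein-coding genes on the 21 chromosomes, of which 6 encode H1, 18 H2A, 18 H2B, 12 H3 and 13 H4. The 4 libraries came from embryoid bodies on day 4 of differentiation from E14Tg2A mouse embryonic stem cells by hanging drops. There were 2 libraries of wild-type cells (WT) and 2 of cells in which lysine 20 of CTCF, the zinc-finger protein that binds insulators and loop anchors, had been changed to arginine by CRISPR/Cas9 (CTCF-K20R, here K20R). The stem cells of both groups had been kept on inactivated embryonic fibroblasts with leukemia inhibitory factor and the 2i inhibitors before differentiation without that factor. How many targeted clones the K20R libraries represent is not given in the sources used here, so a difference between genotypes cannot be told apart from a difference between clones.

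Cells copy their DNA in S phase and need a matching supply of histones at that time, and the replication-dependent genes are transcribed in that window under the coactivator NPAT, which gathers with the clusters in the histone locus body. Their messages end in a conserved stem-loop in place of a poly(A) tail, and the stem-loop is read by SLBP and the U7 snRNP. H2A and H2B genes commonly lie head to head with a shared promoter, and replacement histone genes elsewhere in the genome supply histones outside S phase. An embryoid body is a mixture of cell types and cell-cycle stages, so more cells with an open promoter and a more open promoter in each cell cannot be told apart in these bulk libraries.

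The 67 genes lay in 5 places. On chromosome 13, 23 genes spanned chr13:21715763-22043676 and 31 genes spanned chr13:23531050-23934851. A group of 10 genes lay at chr3:96219865-96270132, 2 genes lay at chr11:58948920-58956830, and Hist4h4, an H4 gene, stood alone at chr6:136801553-136804415. All coordinates are mm10 (GRCm38), counted from 1.

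RefSeq promoter sequences of build GRCm38.p6 were found for 62 members, and the 5 others were Hist2h2be, Hist2h4, Hist1h3f, Hist1h2bc and Hist1h3a. The stretches shown run 5′ to 3′ from 250 bases before the annotated start to 20 bases after it, with capitals for any of the searched elements on either strand. The elements were the CCAAT box (CCAAT), the TATA box (TATAAA), the octamer bound by OCT1 (ATTTGCAT), the H1 box (AAACACA), the H4 site of HINFP (GGTCCG) and the E2F site (TTTGGCGC). A stretch shown need not lie in the peak measured for its gene. Those of Hist1h4k and Hist2h3c2 lay outside their peaks, and the peaks of Hist1h1t reached no base before its start. The following promoters were chosen because the accessibility results below turn on these genes: the strongest H2A-H2B promoter (Hist1h2ac), 2 H4 promoters that stood higher in K20R or had a peak only there (Hist1h4d and Hist1h4k), 2 genes for H3 of the chromosome 3 group (Hist2h3c2 and Hist2h3b), the testis H2B gene (Hist1h2ba) and the testis H1 gene (Hist1h1t).
Hist1h2ac, chr13:23683940-23684209, minus strand: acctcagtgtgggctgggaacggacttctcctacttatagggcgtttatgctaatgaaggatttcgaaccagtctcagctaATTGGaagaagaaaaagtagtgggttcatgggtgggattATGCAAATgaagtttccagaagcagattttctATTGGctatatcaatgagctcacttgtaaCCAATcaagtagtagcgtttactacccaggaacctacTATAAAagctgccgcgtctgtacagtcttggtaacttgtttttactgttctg
Hist1h4d, chr13:23581318-23581587, plus strand: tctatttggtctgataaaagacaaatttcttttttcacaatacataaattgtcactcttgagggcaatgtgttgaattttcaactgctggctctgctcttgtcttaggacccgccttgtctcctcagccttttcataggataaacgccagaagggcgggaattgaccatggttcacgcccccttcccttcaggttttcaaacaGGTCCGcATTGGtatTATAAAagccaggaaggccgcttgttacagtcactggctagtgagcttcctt
Hist1h4k, chr13:21750534-21750803, minus strand: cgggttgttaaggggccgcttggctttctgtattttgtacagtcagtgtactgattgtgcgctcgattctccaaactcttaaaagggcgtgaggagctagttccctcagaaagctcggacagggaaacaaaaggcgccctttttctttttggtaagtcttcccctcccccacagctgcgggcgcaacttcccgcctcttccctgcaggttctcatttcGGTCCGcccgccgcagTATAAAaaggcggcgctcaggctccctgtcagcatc
Hist2h3c2, chr3:96239108-96239377, minus strand: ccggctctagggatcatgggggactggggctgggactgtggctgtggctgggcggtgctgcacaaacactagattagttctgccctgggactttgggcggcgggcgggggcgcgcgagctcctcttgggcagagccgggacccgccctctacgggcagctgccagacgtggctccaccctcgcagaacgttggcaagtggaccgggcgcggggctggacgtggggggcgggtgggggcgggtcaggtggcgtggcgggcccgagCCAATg
Hist2h3b, chr3:96268404-96268673, plus strand: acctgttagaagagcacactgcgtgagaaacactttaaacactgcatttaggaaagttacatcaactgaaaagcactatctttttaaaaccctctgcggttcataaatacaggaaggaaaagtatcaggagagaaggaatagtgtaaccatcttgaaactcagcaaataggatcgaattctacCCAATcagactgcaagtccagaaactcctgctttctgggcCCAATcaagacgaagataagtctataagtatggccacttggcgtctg
Hist1h2ba, chr13:23934137-23934406, minus strand: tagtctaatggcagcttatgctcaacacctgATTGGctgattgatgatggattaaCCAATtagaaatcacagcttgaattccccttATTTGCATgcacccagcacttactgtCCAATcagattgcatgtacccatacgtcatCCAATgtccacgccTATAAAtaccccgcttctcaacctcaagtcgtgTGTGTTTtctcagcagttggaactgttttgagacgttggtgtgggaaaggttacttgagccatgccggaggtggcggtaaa
Hist1h1t, chr13:23695561-23695830, plus strand: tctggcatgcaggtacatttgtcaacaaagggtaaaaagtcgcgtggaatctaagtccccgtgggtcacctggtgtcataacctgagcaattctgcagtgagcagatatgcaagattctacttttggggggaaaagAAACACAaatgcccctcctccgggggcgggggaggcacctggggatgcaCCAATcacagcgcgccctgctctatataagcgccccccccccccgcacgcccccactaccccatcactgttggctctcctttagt

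The elements differed in frequency between the histone families. A CCAAT box was present in each of the 6 H1, 18 H2A, 16 H2B and 10 H3 promoters searched but in 3 of the 12 H4 promoters, against 39.0% of 17491 protein-coding promoters. The H4 site was found in 11 of 12 H4 promoters, in 1 H2B and 1 H3 promoter and in no H1 or H2A promoter, against 10.6% of all promoters. The H1 box was found in 5 of 6 H1 promoters, among them Hist1h1t at positions -114 to -108, in 2 of 18 H2A, 2 of 16 H2B and no H3 or H4 promoters, and in 6.13% of all promoters. The octamer was found in 7 of 18 H2A and 6 of 16 H2B promoters and in none of the H1, H3 or H4 promoters, against 1.71% of all promoters. In Hist1h2ac it lay at -130 to -123 on the minus strand, between CCAAT boxes at -169 and -98. The TATA box was found in 35 of 62 promoters against 13.3%. The exact E2F site and the CTCF consensus were each found in 0 of 62 promoters, against 0.657% and 0.543% of all promoters.

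**Figure D1:**
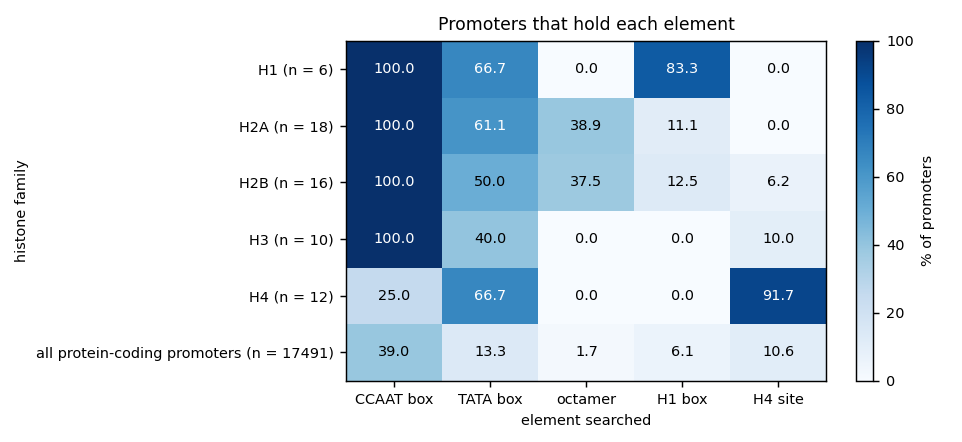
Share of promoters (percent, number in each cell) that held each of 5 elements on either strand, by histone family (rows, with the number of promoters) and over all protein-coding promoters. The CCAAT box was in 100% of the H1, H2A, H2B and H3 promoters and the H4 site in 91.7% of the H4 promoters.

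The stem-loop sequence, searched by its consensus from 200 bases before to 100 bases after the annotated gene end, was found in 34 of the 67 members. It was found in 34 of all 21938 protein-coding genes, so the members held every match. The 4 forms are shown because they carry the hallmark of the class, with the stem in capitals and the loop in lower case.
27 genes: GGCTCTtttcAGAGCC
5 genes: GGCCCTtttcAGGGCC
1 gene: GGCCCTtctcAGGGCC
1 gene: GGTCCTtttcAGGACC
The commonest form was present in Hist2h3b and Hist1h1a, for example. In Hist1h2ac and Hist1h4d no match lay in the searched stretch. The search rests on the annotated gene ends and on an exact consensus, so a gene without a match is not shown to lack the stem-loop.

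The peak lists held 59783 and 66703 peaks in WT and 51823 and 55832 in K20R, and they do not give the number of reads, so the depth of the libraries is unknown. Each peak carried its summit's fold enrichment over the library's own local background and a −log10 p for that summit. Strength is given here as a percentile of −log10 p within the library's own list, where 100 is the strongest peak, because p-values grow with depth. The replicates are the 2 libraries of each genotype, and the exact two-sided permutation test over 2 against 2 libraries cannot give a p under 0.333, so single promoters are described by whether the genotypes overlapped. Promoters of Pou5f1, Sox2 and Nanog (pluripotency), T, Mesp1 and Eomes (mesoderm) and Col1a1, Col1a2 and Thy1 (fibroblasts) held a peak in all 4 lists. Their percentiles within the lists did differ between genotypes: both K20R values lay above both WT values for Pou5f1, Sox2, Mesp1 and Eomes and below them for Nanog, T and Thy1, and Col1a1 and Col1a2 overlapped. Ranked anew among promoters, Nanog overlapped, Col1a2 was higher and the other calls were unchanged. Within the lists T, for example, had 83.1 and 82.8 in WT against 66.7 and 65.6 in K20R, and Mesp1 had 43.5 and 43.4 against 67.3 and 72.4. What part these cell types have in the histone results was not tested.

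Most histone genes had a peak near a start in every library. All 4 lists held a peak no more than 1000 bp from a transcription start site (TSS) for 55 of the 67 members, against 66.1% of all protein-coding genes, and none of the lists held one for 7 members, against 30%. The counts per library were 56 and 58 members in WT and 59 and 60 in K20R. Some of these peaks belong to a neighbour. With the summit itself required within 1000 bp, 43 members had a peak in all 4 lists. Of the members' summits 74.2% lay within 500 bp of a start, against 89.3% over all genes. The members' median percentile lay near that of all promoter peaks, at 87.3 against 86.7 in the first WT list among genes with a peak in all 4. The shares with a peak in all 4 lists were 5 of 6 H1, 14 of 18 H2A, 15 of 18 H2B, 11 of 12 H3 and 10 of 13 H4 genes.

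**Figure D2:**
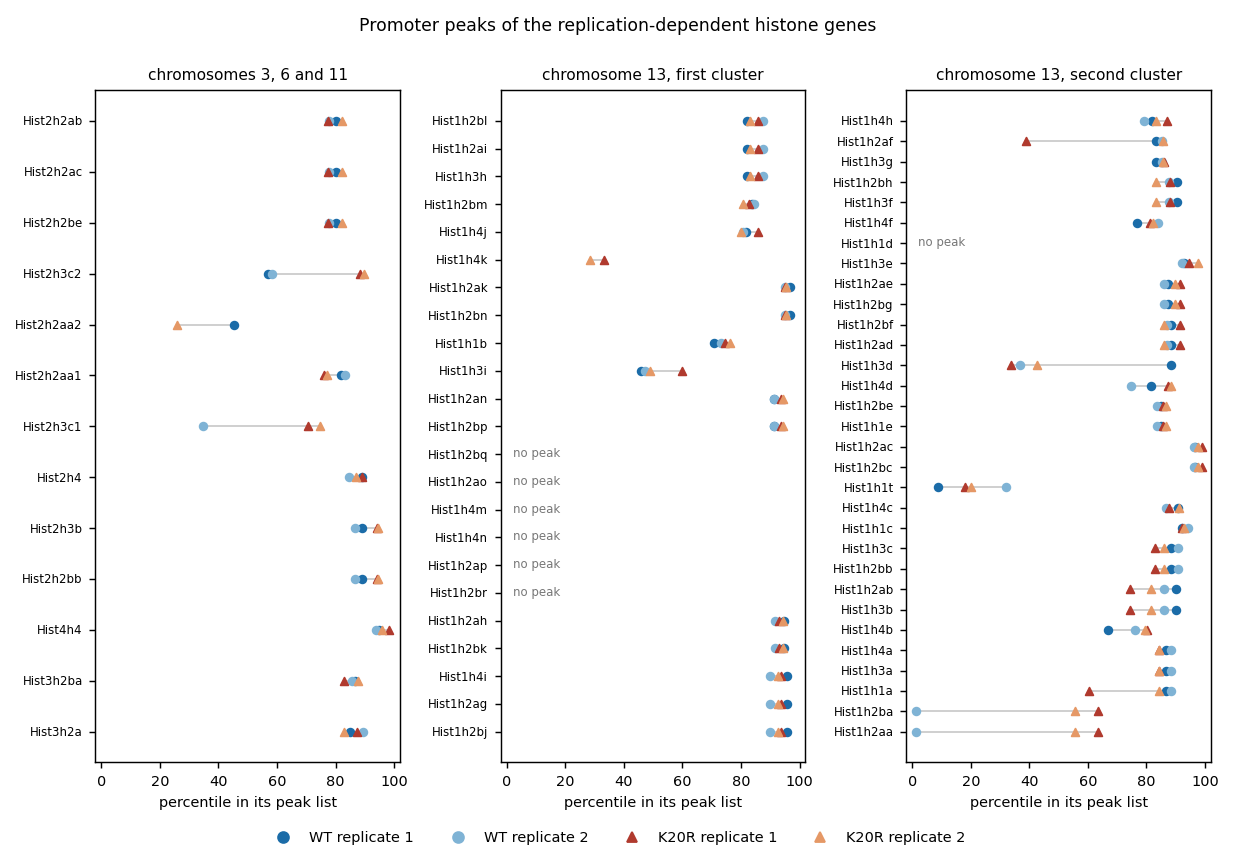
Percentile of the strongest promoter peak of each of the 67 histone genes within its own list (x axis, 100 strongest), in genome order, with circles for WT, triangles for K20R and a grey line over the range. Hist1h1t was the lowest of the genes with a peak in all 4 lists and 7 genes had none.

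The head-to-head promoter of Hist1h2ac and Hist1h2bc was the strongest of the class. Its percentiles were 96.6 and 96.1 in WT against 99.0 and 97.6 in K20R, so both K20R values lay above both WT values. Hist4h4 was next, at 94.7 and 93.7 in WT against 98.4 and 96.0 in K20R. The weakest promoter with a peak in every list was that of Hist1h1t, the linker histone of spermatocytes, at 8.92 and 31.9 in WT against 18.2 and 19.9 in K20R. Hist1h3i and Hist1h3d, both H3 genes, had mean percentiles of 50.4 over the 4 lists. In the list of WT replicate 1 the value for Hist1h3d, 88.3, came from a peak whose summit lay at -1377 bp from its start, at the neighbouring Hist1h2bf and Hist1h2ad promoter, and the other 3 lists gave 37.0, 33.8 and 42.7.

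There were 13 head-to-head pairs, with starts 176 to 660 bp apart, of which 12 paired an H2A with an H2B gene and 1 paired Hist1h2bh with the H3 gene Hist1h3f. No H3 gene was paired head to head with an H4 gene within 1000 bp. In 10 pairs both genes had the same peak as their strongest in all 4 lists. The pair Hist1h2bq and Hist1h2ao and the pair Hist1h2ap and Hist1h2br had no peak. The testis pair Hist1h2ba and Hist1h2aa shared 1 peak in 3 lists. In that pair the starts lie 306 bp apart and Hist1h2ba carries an octamer, a TATA box at -94, an H1 box and 4 CCAAT boxes. Its peak was absent from the list of WT replicate 1, stood at percentile 1.4 in WT replicate 2 and at 63.4 and 55.7 in K20R. The summit pileup, the number of overlapping fragments, was 8 in WT replicate 2 and 33 and 42 in K20R. Pileups and local backgrounds printed for single peaks, here and below, are not scaled for the unknown depth of the libraries. The median promoter had a pileup of 71 (WT replicate 1), 104 (WT replicate 2), 76 (K20R replicate 1) and 119 (K20R replicate 2). In the list of WT replicate 1, 2 peak numbers were skipped between the neighbouring peaks, and the lists held 50.5% to 60.8% of the numbers up to their highest, so a peak that had been left out of the list cannot be told apart from one never called.

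The members without a peak lay mostly in copied sequence. Reads of low mapping quality had been removed before peak calling, so the share of 32-base words within 250 bp of the TSS that occur more than once in mm10 was counted. It was 93.2% to 100% for Hist1h4m, Hist1h4n, Hist1h2ao, Hist1h2ap, Hist1h2bq and Hist1h2br, which had no peak in any list. Hist1h2bq and Hist1h2br shared 99.6% of these words and their 300-base promoters were identical. The remaining gene with no peak, Hist1h1d, had 0% repeated words. Its GENCODE start lies 1770 bp from the start of the RefSeq record, and at the RefSeq start it had a peak in all 4 lists, at percentiles 79.7 and 78.8 in WT against 79.5 and 85.8 in K20R. Over the 55 members with a peak in all 4 lists the median was 30.0%, and 3 of them exceeded 50%. Over all protein-coding genes 7.54% exceeded 50%, against 12 of the 67 members.

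**Figure D3:**
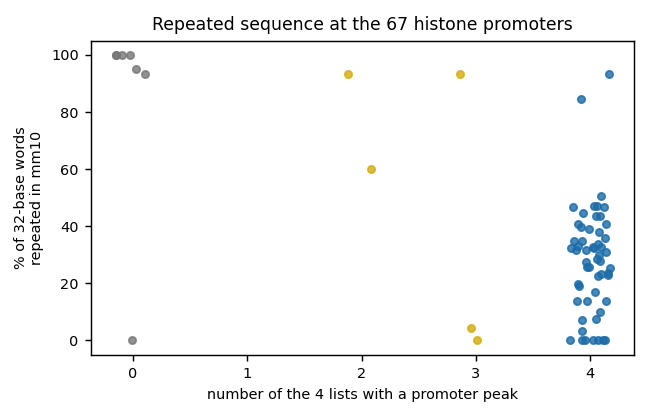
Percent of 32-base words within 250 bp of the TSS that occur more than once in mm10 (y axis) for the 67 histone promoters, by the number of lists with a promoter peak (x axis; points are spread sideways for visibility). Of the 7 promoters with no peak, 6 lay at 93.2% or above and Hist1h1d at 0%.

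A peak in both K20R lists and neither WT list was found at 1 member, Hist1h4k, against 0.451% of all genes, and the reverse was found at none. Hist1h4k is an H4 gene whose promoter, shown above, holds an H4 site at -32 and a TATA box at -16. The peak region, chr13:21750102-21750334, lay downstream of the start and outside the stretch shown, so these elements were not in it. It held the gene's stem-loop match at chr13:21750150-21750165, and 51.0% of its 32-base words were repeated. The K20R percentiles of Hist1h4k were 33.2 and 28.3, with summit pileups of 40 and 56 over local backgrounds of 15.1 and 21.9. In its promoter 60% of the 32-base words were repeated, and in the list of WT replicate 1, 1 peak number was skipped beside it. Hist2h2aa2, an H2A gene, had a peak in WT replicate 1 (45.5) and K20R replicate 2 (25.8) only.

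The clearest difference between genotypes was at Hist2h3c2 and Hist2h3c1, a pair of H3 genes in opposite orientation on chromosome 3, and both were higher in K20R. At Hist2h3c2 the percentiles were 57.1 and 58.4 in WT against 88.3 and 89.9 in K20R. The summit fold was 4.50 and 5.66 in WT against 9.58 and 11.7 in K20R, with pileups of 35 and 47 against 84 and 136, so the genotypes were well apart on each scale. The local background at this peak was 7.0 and 7.47 in WT against 7.87 and 10.7 in K20R. In a limma fit of log2 summit fold over the 38527 regions common to the 4 lists, with quantile normalization, the region chr3:96236835-96238766 was 1.11 ± 0.20 (SE) higher in K20R on the log2 scale, with a Benjamini-Hochberg adjusted p of 0.00040.

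At Hist2h3c1 the region chr3:96247049-96249635 had summit folds of 3.09 and 3.89 in WT against 6.16 and 8.02 in K20R, and pileups of 24 and 36 in WT against 51 and 83 in K20R. The same limma fit gave a log2 difference of 1.07 ± 0.23 (SE) and an adjusted p of 0.0036. Within 1000 bp of its TSS the list of WT replicate 1 held no peak, and the percentiles were 34.6 in WT replicate 2 and 70.6 and 74.6 in K20R. Of the common regions at histone promoters, 38 held the strongest promoter peak of a member in at least 1 list and were counted here. These were the 2 of the 38 that passed as higher, and 0 of 38 passed as lower, with 1 lower and 2 higher at an unadjusted p under 0.05, against 9.39% and 8.78% of all common regions. Over all common regions 2.48% passed as higher and 3.63% as lower.

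The peaks at these 2 genes lay downstream of the start, and the starts themselves lie in copied sequence. In both promoters 93.2% of the 32-base words were repeated, and each shared 90.0% with the other. The called regions held 15.5% (Hist2h3c2) and 11.2% (Hist2h3c1) repeated words. At Hist2h3c2 the strongest summit lay 1471 and 1758 bp downstream of the TSS in WT and 680 and 701 bp downstream in K20R. At Hist2h3c1 the strongest summit within reach of the start lay 671 bp downstream in WT replicate 2 and 716 and 715 bp in K20R. The limma fit took the strongest peak of the region in each list. In WT replicate 2 that was another peak, with a pileup of 36 against 34 for the peak near the start. In WT replicate 1 the peak of the region began at chr3:96248711. At both genes the fit thus set summits at different positions against each other. The third H3 gene of the group, Hist2h3b, with 33.8% repeated words, shares its strongest peak with the H2B gene Hist2h2bb. The strongest summit of that region, chr3:96269770, lay beside the RefSeq start of Hist2h2bb (96269700) and further downstream of that of Hist2h3b (96268654). That peak had WT percentiles of 89.1 and 86.5 against K20R percentiles of 94.3 and 94.6, and its summit fold differed by 0.21 ± 0.18 (SE) on the log2 scale with a limma adjusted p of 0.62.

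Across the class the direction depended on the measure. Within the lists, both K20R percentiles lay below both WT percentiles at 9 of 55 members, against 32.2% of all genes so ranked, and above them at 19, against 15.8%. The 55 members share peaks and amount to 37 distinct sets of peaks, of which 6 were lower and 14 higher. Of the 13305 distinct sets over all genes, 4289 were lower and 2093 higher. With 1 library left out, 16 were lower and 31 higher without WT replicate 1, 20 and 25 without WT replicate 2, 15 and 25 without K20R replicate 1, and 15 and 22 without K20R replicate 2. Fewer values per group make separation easier by construction. No share over all genes is given for the counts with a library left out, so they cannot be set against the shares above. Since the K20R lists are shorter, promoters were also ranked anew among the 14494 genes with a peak in all 4. Then 8 members were lower, against 23% of all genes, and 19 higher, against 23.9%. By summit fold the split turned. Within the lists 17 members were lower, against 24.7%, and 5 higher, against 14.2%. Ranked anew by fold, 16 were lower, against 19.9%, and 5 higher, against 20.1%.

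The fold and the p-value of a summit together give its pileup and its local background, the latter estimated by MACS2 from the surroundings of the peak, and these could be solved for at 99.98% to 99.998% of the peaks to within 1% of the −log10 p. This step was chosen after the split above had been seen. Both parts ranked higher in K20R at most histone promoters. They were solved from the same fold and p-value, with a background from the same library around the summit, so they are not separate measurements. Ranked among promoters, the pileup was lower at 1 of 55 members, against 25.5% of all genes, and higher at 34, against 25.6%. Leaving out a library gave 4 lower without WT replicate 1 or K20R replicate 1, 12 without WT replicate 2 and 10 without K20R replicate 2, with 35 to 41 higher. The local background was lower at 3 members, against 26.3%, and higher at 47, against 29.7%, and 6 were lower without WT replicate 2. The counts with a library left out again have no share over all genes beside them and cannot be set against the shares given. Neighbouring members share a surrounding, so the 47 members higher in background are not 47 separate measurements. The 55 members hold 37 sets of peaks, of which 32 were higher and 1 lower in background. Of the 13305 sets over all genes, 3863 were higher and 3596 lower.

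**Figure D4:**
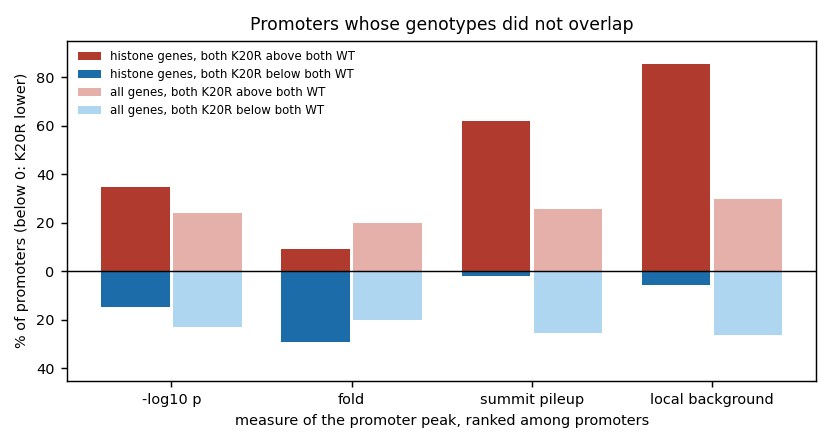
Percent of promoters whose 2 K20R values both lay above (red) or both below (blue, drawn under 0) their 2 WT values, on 4 measures ranked among the 14494 promoters with a peak in all 4 lists, for the 55 histone promoters (dark) and all genes (light). The histone promoters were above in 61.8% for pileup and 85.5% for local background, and by fold they were above in 9.09%.

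Relative to the median promoter of its own library, the members' median background was 0.60 and 0.61 higher on the log2 scale in WT and 0.81 and 1.00 higher in K20R. Their median pileup was 0.31 and 0.25 higher in WT and 0.41 and 0.56 higher in K20R. Neither pair of values overlapped between genotypes. The median background difference between K20R and WT was 0.30 over the 55 members, 0.36 over the 16 of the first chromosome 13 cluster, 0.31 over the 28 of the second and 0.08 over the 8 of chromosome 3, of which 5 were positive. In the chromosome 3 group the library medians themselves were lower in K20R, at 0.39 and 0.39 in WT against 0.22 and 0.23 in K20R. The median difference was 0.10 over the 14 other genes that overlap the same windows, -0.03 over 520 other genes of chromosome 13 and 0.01 over all genes. Those 14 are not a clean local comparison. The promoter peaks of Sv2a, Btnl10 and Scgn matched no region of the windows. Trim17 had the peak of Hist3h2a as its own, and Bola1 had that of Hist2h2ab in K20R replicate 2. The single-gene values that follow are not scaled for depth, and the promoter medians differed between libraries too. For pileup these medians stood at 71 (WT replicate 1), 104 (WT replicate 2), 76 (K20R replicate 1) and 119 (K20R replicate 2). For background they stood, in the same order, at 7.59, 9.66, 8.45 and 11.1. At Hist1h4d, an H4 gene, the pileups were 77 and 97 in WT against 119 and 196 in K20R, and the backgrounds were 12.1 and 17.1 against 19.3 and 29.5. At Hist1h2ac and Hist1h2bc the pileups were 114 and 166 against 175 and 249, and the backgrounds 9.24 and 12.5 against 15.1 and 22.7. At the testis gene Hist1h1t, the pileups of 17 and 31 in WT against 22 and 35 in K20R overlapped.

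When the log2 pileups (with 1 added) were put through the same limma fit in place of the fold, 11 of the 38 histone regions were higher in K20R and 0 lower, against 9.8% higher and 10.8% lower of all common regions, and 33 of 38 differences were positive. At an unadjusted p under 0.05, 18 histone regions were higher, against 16.6% of all common regions, and 0 lower, against 15.7%. Besides the 2 regions of Hist2h3c2 and Hist2h3c1, Hist1h4d rose by 0.70 ± 0.12 (SE), with an adjusted p of 0.00063. The H4 gene Hist1h4b rose by 0.55 ± 0.12 (adjusted p = 0.0042), and the Hist2h2bb and Hist2h3b region by 0.53 ± 0.12 (adjusted p = 0.0034). The Hist1h2ac and Hist1h2bc region rose by 0.44 ± 0.10 (adjusted p = 0.0042), and Hist1h3e, an H3 gene, by 0.37 ± 0.12 (adjusted p = 0.038). The fit without any 1 of the 4 libraries, with 1 residual degree of freedom, called none of the 38527 regions. At an unadjusted p under 0.05 it then gave 9 to 15 of the 38 histone regions as higher, against 8.48% to 12.2% of all common regions, and 0 as lower, against 10.3% to 11.1%.

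The largest differences in percentile ranked anew stood at both ends, and their size depended on the scale. Hist2h3c2 was highest, with K20R minus WT at 53.4 points (ranked anew at 7.39 and 7.30 in WT against 59.6 and 62 in K20R). Within the lists its difference was 31.4 points and by fold ranked anew 57.9. Hist1h4d followed at 27.6 points (36.8 and 21.5 in WT against 56.2 and 57.4 in K20R), but its difference was 9.59 points within the lists and 2.49 by fold. Hist2h2bb and Hist2h3b stood at 26.2 points (57.9 and 46.9 in WT against 78.8 and 78.5 in K20R), with 6.67 within the lists and 13.7 by fold. The lowest values were -26.1 at Hist1h3d, -23.3 at Hist1h1a and -20.9 at Hist1h2ab and Hist1h3b. The value at Hist1h3d rests on the distant summit in WT replicate 1, and without that library it was 0.44. At Hist1h1a, a linker histone gene, the promoter ranked anew at 49.6 and 53.0 in WT against 10.9 and 45.1 in K20R, and in 3 lists the rank came from a peak with its summit at -2196, -2121 and -2196 bp from the start. With peaks required within 500 bp its difference was 7.22. Its own region, chr13:23763485-23764629, had a pileup 0.50 ± 0.15 (SE) higher in K20R (limma adjusted p = 0.023). Hist1h2ab and Hist1h3b ranked anew at 61.5 and 45.6 in WT against 27.0 and 38.2 in K20R, with the summit 1220 to 1222 bp downstream of the Hist1h2ab start, and within the lists their difference was -10.1. The summit fold there differed by -0.49 ± 0.21 (SE) on the log2 scale and limma gave an adjusted p of 0.20.

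The windows were extended by 25 kb on each side and held 115 merged regions. Of these, 87 were common to the 4 lists, against 47.9% of all 80380 regions, 4 were restricted to WT, against 10.4%, and 3 to K20R, against 3.1%. Among the 44 regions at histone promoters 40 were common, 0 were restricted to WT and 1, that of Hist1h4k, to K20R. The 4 WT-restricted regions and 1 of the K20R-restricted regions lay at no promoter or tRNA gene. The CTCF consensus lay within 100 bp of the strongest summit in 0 of 44 histone promoter regions and in 4 of the 115 regions, against 6.02% of all regions. One of those 4, at chr13:23597885-23598438, was restricted to WT, with percentiles of 34.7 and 21.

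The same windows carry many tRNA genes, which RNA polymerase III transcribes from promoters inside the gene. Of 43 tRNA genes there, 38 overlapped a peak region, against 263 of 403 on the 21 chromosomes. The 27 regions over tRNA genes away from protein-coding promoters all lay on chromosome 13, and 24 of them were common to the 4 lists. The B box (GTTCGANNC) lay within 100 bp of the strongest summit in 8 of the 27, in 0 of the 44 histone promoter regions and in 0.447% of all regions.

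The tRNA regions stood higher in K20R. Both K20R percentiles lay above both WT percentiles at 11 of the 24 common tRNA regions, against 18.6% of all common regions, and below them at 0, against 34.8%. At the histone promoters of the same windows these counts were 17 higher and 7 lower of 40, which add to the 38 above a second region each at Hist1h3i and Hist1h4i that was no member's strongest. Among 114 common tRNA regions elsewhere in the genome, 42 were higher and 18 lower. In the limma fit of pileups 15 of the 24 rose and 0 fell, against 9.8% and 10.8% of all common regions, and all 24 differences were positive. Their median was 0.62 on the log2 scale against 0.03 over all common regions. Of the 114 tRNA regions elsewhere, 39 rose and 2 fell in that fit, with a median of 0.35, so the rise was not particular to these windows. In the limma fit of summit fold 0 of the 24 passed in either direction. The fit of pileups without any 1 library called none of these regions, and at an unadjusted p under 0.05 it gave 10 to 18 of the 24 as higher, against 8.48% to 12.2% of all common regions.

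The tRNA-Leu region at chr13:21914056-21914992 had pileups of 27 and 49 in WT against 64 and 97 in K20R, a difference of 1.03 on the log2 scale (limma adjusted p = 0.00038), and percentiles of 36.8 and 49.3 against 65.6 and 67.1. The tRNA-Asp region at chr13:21910885-21911722 had pileups of 23 and 22 against 46 and 59, and its difference was 1.11 (limma adjusted p = 0.0017). The strongest tRNA region, over tRNA-Ser at chr13:22049826-22051673, had pileups of 105 and 131 against 113 and 197 and a difference of 0.21 (limma adjusted p = 0.24). The 9 regions at other promoters in the windows had 0 calls in either direction in the fit of pileups. Over all common regions 9.8% were higher and 10.8% lower, so 0 of 9 lies near those shares.

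**Figure D5:**
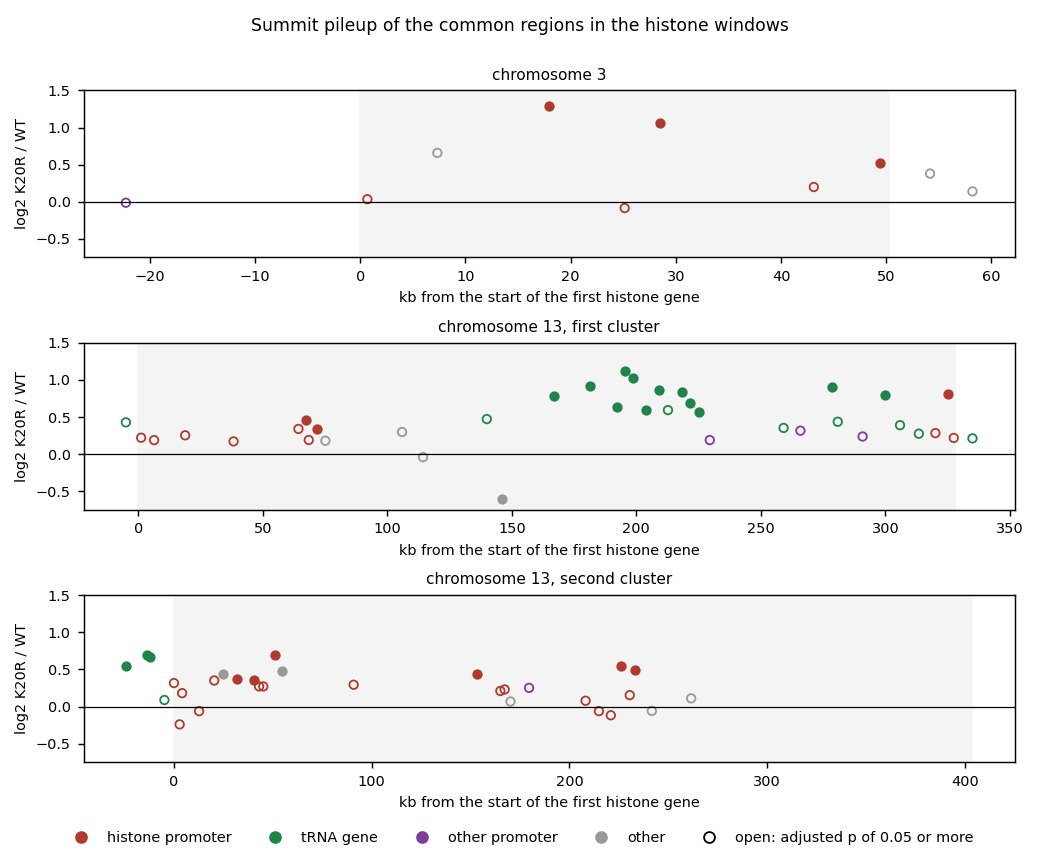
Difference in log2 summit pileup between K20R and WT (y axis) for regions common to the 4 lists, against the distance in kb from the first histone gene (x axis), in 3 windows, coloured by what the region covers. The grey band spans the histone genes. Filled points passed an adjusted p of 0.05 in the limma fit, and the filled tRNA points of the first chromosome 13 cluster lay between 0.56 and 1.11.

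The genes that control and process histone messages had promoter peaks in every library. All 18 listed genes had a peak in all 4 lists, and in percentile ranked anew 4 were lower in K20R, against 23% of all genes, and 1 higher, against 23.9%, so the share that was lower was near that of all genes. The values that follow are ranked anew. Cdk2, the S-phase kinase that activates NPAT, stood at 69.0 and 67.9 in WT against 75.4 and 80.2 in K20R. E2f1, a transcription factor of the G1/S transition, stood at 77.7 and 81.3 in WT against 69.9 and 71.9 in K20R. Cpsf3, the nuclease that cuts histone messages, stood at 73.1 and 79.2 against 69.8 and 68.8, and Lsm11, a U7 snRNP protein, overlapped at 44.6 and 66 against 63.1 and 63.1. The promoter of Npat overlapped as well, at 98.5 and 94.2 in WT against 93.5 and 97 in K20R, and that of Slbp, named after its values were seen, stood at 98.2 and 95.3 against 92.4 and 92.0.

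Of the 11 replacement histone genes, each with a peak in all 4 lists, 3 were lower in K20R when ranked anew, against 23% of all genes, and 6 higher, against 23.9%. H3f3b, a gene for H3.3, ranked anew at 52.5 and 54.8 in WT against 72.7 and 78.4 in K20R. H2afy2, a macroH2A gene, stood at 17.5 and 22.8 against 36.9 and 46.8. H2afj, an H2A variant gene in the window of Hist4h4, was lower, at 52.9 and 62.1 against 37.5 and 41.5, whereas Hist4h4 beside it was higher, at 77.8 and 72.0 against 93.7 and 83.8. H2afz, the gene for H2A.Z, overlapped at 58.8 and 49.3 against 73.5 and 55.4.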

How the data were processed

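ATAC-seq was performed by the authors on day 4 embryoid bodies, with 2 WT and 2 K20R libraries. Per the labels and the study's methods, the authors trimmed reads with Trim Galore, aligned them to mm10 with Bowtie2, removed reads of mapping quality under 30, duplicates and blacklisted reads, and called peaks in each library with MACS2. The deposited peak lists give the fold (a ratio) at the summit over local background, its −log10 p and −log10 q, and the summit offset as a number of bases, which was used as another column. No read totals are given.

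The members, gene lists and tests were chosen with earlier results of these data known. Peaks were assigned to a gene within 1000 bp of a TSS of a protein-coding GENCODE vM21 transcript, and the one of highest −log10 p was used. Members closer than 250 kb formed a cluster. Peaks that shared a base were merged into regions. Common regions were tested with limma 3.58.1 (trend, quantile normalization) in R 4.3.3, on log2 fold as deposited, with Benjamini-Hochberg adjustment over all regions and a threshold of 0.05. The script was tested on simulated data. Pileup and background were solved from fold and p under the Poisson model of MACS2. Sequence elements were searched in RefSeq promoters and mm10 with Python 3.11.15. Named genes were the 3 highest and 3 lowest members by mean percentile, the 4 largest and 4 smallest differences, members with peaks in some lists, regions called by limma on fold, and up to 4 genes per list by the size of the difference. Regions and genes named from the pileup fit, Npat, Slbp and the tRNA regions were chosen after their values were seen.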

Additional observations from a re-analysis of the deposited data

How the results depend on the processing

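With a stricter peak threshold, a narrower window or another start annotation, the number of members with a peak in all 4 lists, 55, ranged from 43 (summit within 1000 bp) to 56 (RefSeq starts). The members apart between genotypes, 9 lower and 19 higher, became 17 and 5 by fold, 16 and 5 by fold ranked anew, and 1 and 34 by pileup ranked anew. Without 1 library they ranged from 15 to 20 lower and from 22 to 31 higher, and fewer values per group make separation easier by construction. The 2 histone regions called higher on fold became 1 with −log10 q of at least 5 in all libraries (fewer regions tested), 11 on pileups and 15 on pileups with the replicate block. The replicate block on fold also gave 2, and the numbers only name the libraries, since the labels tie no WT library to a K20R library. Deviations of same-numbered libraries correlated at 0.214 over 38527 regions. The 11 histone regions higher by pileup became 18 with median centring, and these calls and the 15 tRNA calls fell to 0 without any 1 library. Pileups ranked anew were lower at 4 to 12 members, and higher at 35 to 41, without 1 library, and backgrounds lower at 3 to 6. The 4 WT-restricted and 3 K20R-restricted regions became 1 and 1 at −log10 q of at least 5, 2 and 6 with the same number of strongest peaks, and 6 to 9 and 3 to 7 without 1 library. Hist1h3d ranged from -52.6 to 0.44 without 1 library, reversing without WT replicate 1, and Hist1h1a reversed to 7.22 within 500 bp and 6.93 by summit; the cause in Hist1h1a was a different peak. The fits of pileups, the ranks of pileup and background, fold ranked anew and RefSeq starts were chosen after seeing the data. Where no cause is given, the cause was not tested.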

Other observations

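The histone windows overlap 22 other protein-coding genes, of which 14 had a promoter peak in all 4 lists and 8 in none. Some of these genes reach beyond the windows, and their promoter peaks can lie outside. Those without a peak included the transporter genes Slc17a1, Slc17a2, Slc17a3 and Slc17a4, which lie between Trim38 and the testis pair Hist1h2ba and Hist1h2aa in the second chromosome 13 window. Hfe, the hemochromatosis gene next to Hist1h4c, had WT percentiles of 70.2 and 72.3 against K20R percentiles of 73.0 and 76.2. Scgn, which encodes a calcium-binding protein and lies only partly in that window, had 77.3 and 78.2 in WT against 56.5 and 63.2 in K20R. Its promoter peak matched no region of the window. These genes were named after their values were seen, and no test was run on them alone.

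The precision of these values is limited by 2 libraries per genotype, by lists that give no read totals and by the removal of reads that map to several places. Whether that removal accounts for promoters without a peak in copied sequence was not tested. Where starts are crowded, the strongest peak in reach of a start can belong to a neighbour, and leaving out 1 library removed the calls made on pileups.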
